A study of Mus musculus with 79 samples.

Results

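Quadriceps RNA of 37 high fat diet (HFD) strains was ordered by Col1a1, the gene of the alpha-1 chain of type I collagen, and the 12 highest arrays were compared with the 12 lowest. The members were chosen by the measured Col1a1 value itself, on the only probeset of that name, so 24 of the 37 HFD arrays, out of 79 arrays in the series, entered the comparison and 13 lay between. All animals were males of the BXD family, inbred lines that carry mixtures of the genomes of C57BL/6J and DBA/2J, or males of these parental strains. The HFD cohorts ate Harlan 06414 from 8 weeks of age, the chow diet (CD) cohorts ate Harlan 2018, and all were fasted overnight before sacrifice at 29 weeks. Each array held the evenly pooled RNA of about 5 animals of a strain on a diet, so the array, not the animal, is the unit here. Both sets held 5 arrays of batch 1 and 7 of batch 2, as the sample titles give the batches.

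Scores were scaled on each array to average 8 with an SD of 2 units. They were taken as log-type values, which was not tested, and their base is not known, so a difference is given in units and not as a fold. In a whole muscle, more cells of a type and more RNA per cell cannot be told apart. The fast fibre genes that mark quadriceps lay at mean scores of 14.2 to 14.6 over the list on the 24 arrays.

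The matrix of skeletal muscle is made chiefly by fibroblasts, in sheets around fibres and bundles and in the tendon that continues them. Type I collagen is a heterotrimer of Col1a1 and Col1a2 chains, and types III and V are built into the same fibrils. Chains are hydroxylated and folded in the endoplasmic reticulum with the help of Serpinh1 (HSP47), trimmed outside the cell and cross-linked by lysyl oxidases. Basement membranes around each fibre hold type IV collagen and laminins, and type VI collagen links them to the fibrils.

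Promoter windows of 300 bases, from 250 before to 50 after the annotated start, were read from a RefSeq table of build GRCm38.p6, which listed 8 of the 11 fibrillar collagens. Col1a2 is shown because its product pairs with that of Col1a1 and its difference was the largest of the other fibrillar collagens, and Col3a1 because its product joins the same fibrils. Capitals mark CCAAT on either strand (ATTGG on the printed strand), the letters of the box bound by the general factor NF-Y. Col1a2 lies at chr6:4505368-4505667 and Col3a1 at chr1:45311288-45311587, both on the plus strand.
Col1a2: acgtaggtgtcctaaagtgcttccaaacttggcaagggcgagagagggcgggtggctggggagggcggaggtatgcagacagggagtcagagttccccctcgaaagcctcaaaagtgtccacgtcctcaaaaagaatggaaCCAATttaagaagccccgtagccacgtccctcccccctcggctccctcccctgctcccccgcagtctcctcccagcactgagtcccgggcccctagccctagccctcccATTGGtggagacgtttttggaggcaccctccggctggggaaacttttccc
Col3a1: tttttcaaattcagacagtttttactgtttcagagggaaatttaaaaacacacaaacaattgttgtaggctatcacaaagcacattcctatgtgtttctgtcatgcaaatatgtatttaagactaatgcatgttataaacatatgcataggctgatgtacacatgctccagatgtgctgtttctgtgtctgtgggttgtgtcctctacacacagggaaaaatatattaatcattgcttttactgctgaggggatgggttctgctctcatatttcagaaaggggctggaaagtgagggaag
The Col1a2 window held CCAAT at bases 142 to 146 and ATTGG at bases 251 to 255, and the Col3a1 window held neither. Of the 8 windows, 3 held the motif, those of Col11a1, Col1a2 and Col5a3. Of all 32851 windows in the table, 37.4% held it on either strand. A match describes the letters and is not a measured site. Col1a1, Col2a1 and Col5a2 were not listed.

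Col1a1 varied over 37 HFD arrays from 9.566 to 10.395, with a mean of 10.07 ± 0.17 (SD, n = 37). The highest arrays were those of BXD85 (10.395), BXD65 (10.369), BXD87 (10.333), BXD51 (10.298), BXD48 (10.292), BXD68 (10.249), BXD90 (10.237), BXD103 (10.231), BXD70 (10.226), BXD84 (10.187), BXD75 (10.186) and BXD99 (10.149). The lowest were those of BXD61 (9.566), BXD69 (9.801), BXD97 (9.848), BXD73 (9.859), BXD83 (9.902), BXD63 (9.903), BXD71 (9.923), BXD49 (9.934), BXD44 (9.963), BXD96 (9.966), BXD79 (9.975) and BXD98 (9.984). The values ran on without a gap at either edge, since BXD89 lay just outside the high set at 10.143 and BXD55 just outside the low set at 9.997. BXD61 alone stood apart, by more than 0.2 units from the next array. The parental strains lay in the middle, DBA/2J at 10.027 and C57BL/6J at 10.014. The sets had means of 10.26 ± 0.08 (SD, n = 12) and 9.89 ± 0.12 (SD, n = 12), a difference of 0.38 units that the choice of arrays fixed.

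**Figure D1:**
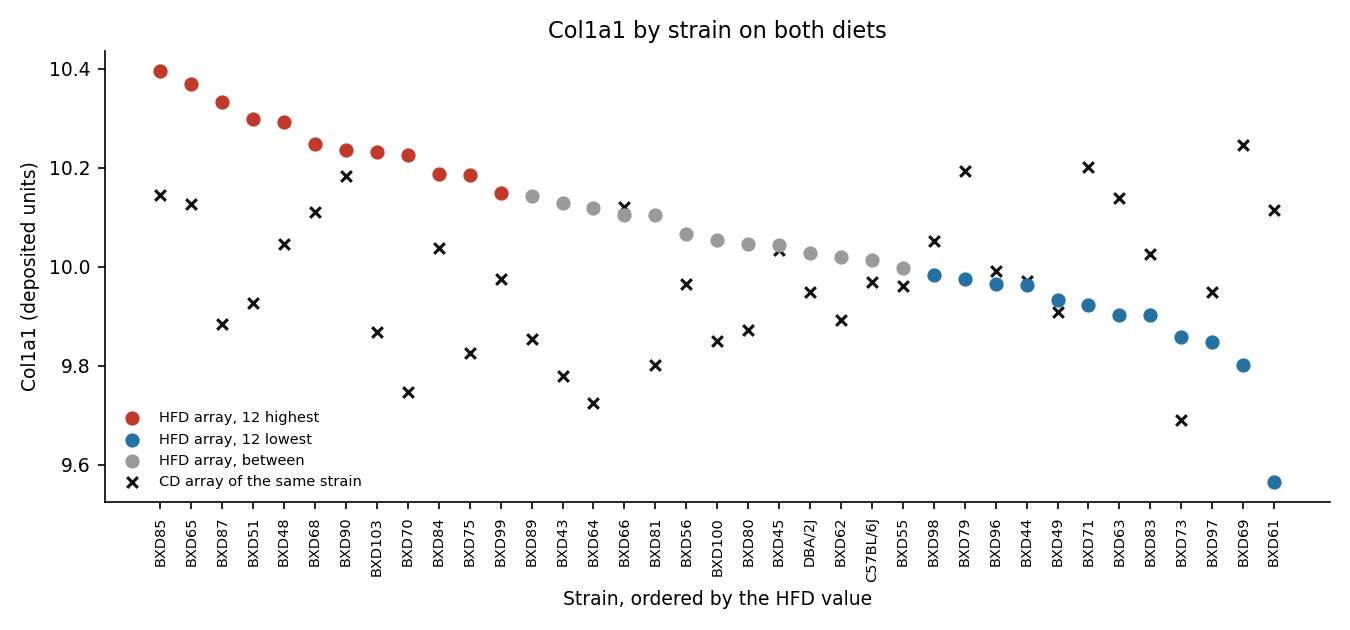
Col1a1 in deposited units (vertical axis) for the 37 strains with arrays on both diets, ordered by the HFD value (horizontal axis). Filled points are HFD arrays and crosses CD arrays of the same strain. The HFD points fall from 10.395 to 9.566 by construction, while the crosses show no matching order.

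Every other gene of this comparison was measured on the arrays that chose the sets, so its difference is a description with no test. Of 22333 named genes other than Col1a1, 163 were higher by at least 0.3 units in the high set (0.73%) and 203 were lower by as much (0.909%). The mean was higher in the high set for 58.9% of genes, a share that was 44.2% when each array was centred on its median with the sets kept, 45.0% when the centred arrays were also ranked again, which replaced 3 of the 12 low arrays, and 46.2% when dim probesets were left out. By a second rule, a difference of at least 1 pooled SD of the sets, 15.9% of genes were higher and 5.55% lower. The high and low arrays did not overlap for 1 gene (0.00448%), Podnl1, a small leucine-rich proteoglycan gene. Podnl1 ranged from 7.293 to 7.527 with a median of 7.343 on the high arrays, and from 6.661 to 7.282 with a median of 7.09 on the low arrays.

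The collagens were higher as a family. All 10 fibrillar collagens other than Col1a1 had a higher mean in the high set, each by at least 1 pooled SD, with a median difference of 0.20 units against 0.03 over all genes. All 26 basement membrane and other collagens also had a higher mean, 18 of them by at least 1 pooled SD, with a median of 0.16. Only Col1a2 among these 36 reached 0.3 units. With each array centred on its median and the sets kept, the medians were 0.15 and 0.11 and all 36 were higher. With the centred arrays ranked again, which replaced 3 low arrays, the medians were 0.10 and 0.08 and 25 of the 26 other collagens were higher.

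Col1a2, the partner chain in type I collagen, ranged from 10.090 to 10.433 with a median of 10.33 on the high arrays. On the low arrays it ranged from 9.796 to 10.176 with a median of 10.02. The sets met only between 10.090 and 10.176, and the difference was 0.30 units or 2.58 pooled SDs. Col5a1, of the type V collagen that starts fibrils, ranged from 8.879 to 9.151 with a median of 8.98 on the high arrays and from 8.649 to 8.937 with a median of 8.79 on the low arrays. Its difference of 0.19 units was 2.22 pooled SDs. Col3a1 ranged from 9.686 to 10.131 with a median of 9.87 on the high arrays and from 9.429 to 9.843 with a median of 9.67 on the low arrays. It differed by 0.22 units or 1.67 pooled SDs, with more overlap than Col1a2. Col5a2 differed by 0.27 units but by 1.02 pooled SDs, since its arrays were more spread.

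The other types were also higher, by differing amounts. Col6a3, of the beaded type VI filaments, differed by 0.19 units (high arrays 9.407 to 9.799, low arrays 9.125 to 9.587). Col12a1, whose product coats fibrils, differed by 0.20, and Col4a1, of basement membranes, by 0.14. Collagens best known from other tissues differed as much, Col9a1 and Col2a1 of cartilage by 0.28 and 0.21 units and Col7a1 and Col17a1 of skin by 0.24 each. Col9a1 and Col17a1 were dim, with means over all arrays of 7.7 and 8.1, in a range of brightness where most probesets of any kind were higher in the high set.

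**Figure D2:**
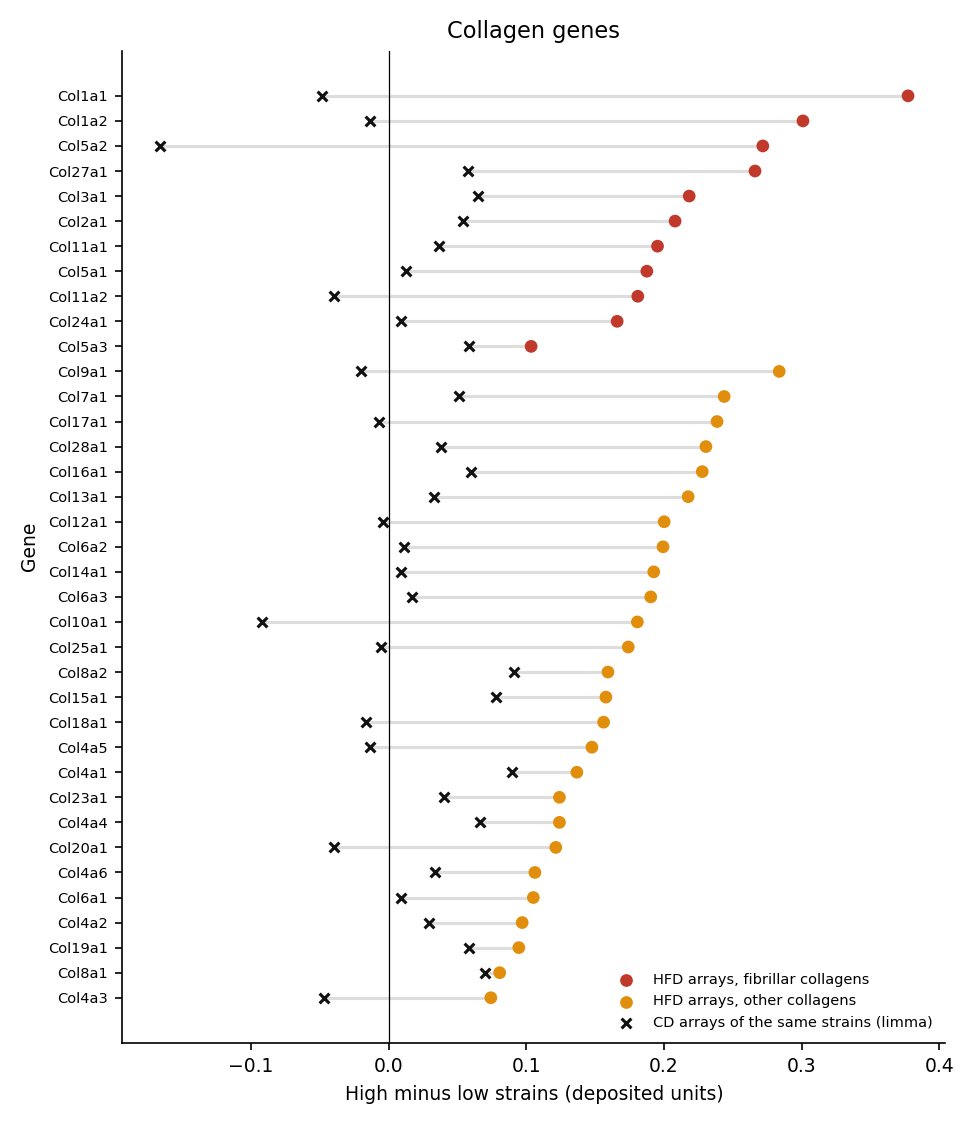
Difference between high and low strains in deposited units (horizontal axis) for each collagen gene (vertical axis). Filled points are the HFD arrays that chose the sets and crosses the CD arrays of the same strains by limma. Every filled point lies above 0, and the crosses lie on both sides of 0, between -0.17 and 0.09.

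Among 28 genes that process collagen, 23 had a higher mean and the median was 0.08 units, with 6 higher by at least 1 pooled SD. Sparc, a collagen-binding glycoprotein, ranged from 13.005 to 13.654 with a median of 13.36 on the high arrays and from 12.287 to 13.469 with a median of 13.03 on the low arrays, a difference of 0.35 units. Serpinh1, the collagen chaperone, ranged from 9.071 to 9.470 with a median of 9.30 and from 8.549 to 9.390 with a median of 9.00, a difference of 0.31. Both overlapped between the sets. Pcolce, an enhancer of the procollagen peptidase, differed by 0.22 units. Of the enzymes, Leprel1, a prolyl 3-hydroxylase, differed by 0.21, the procollagen peptidases Adamts14 and Adamts3 by 0.17 and 0.16, and Bmp1, also a procollagen peptidase, by 0.10. P4ha1 of prolyl hydroxylase and Plod3 of lysyl hydroxylase differed by 0.08 each. Among the 5 members with a lower mean were Lox, the lysyl oxidase (-0.06), and P4hb, the shared subunit of prolyl hydroxylase (-0.10). Of 19 chaperones of the endoplasmic reticulum 11 had a higher mean, with a median of 0.02.

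Other matrix genes stood nearer to the background. Of 40 matrix glycoproteins 30 had a higher mean (median 0.08 units), of 20 proteoglycans 17 (median 0.10) and of 26 remodelling genes 18 (median 0.05). Ltbp2, a latent TGF-beta binding protein of elastic fibres, ranged from 8.147 to 8.511 on the high arrays and from 7.957 to 8.272 on the low arrays, a difference of 0.22 units or 2.10 pooled SDs. Mfap4, also of elastic fibres, differed by 0.30 units, and Prelp, a collagen-binding proteoglycan, by 0.29. Cyr61, an early response matrix protein, went the other way by -0.41 units (high arrays 10.670 to 12.012, low arrays 10.502 to 12.101), with wide overlap. Fn1, fibronectin, differed by 0.17 and Postn, periostin, by 0.15, both under 1 pooled SD.

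Genes of TGF-beta and BMP signalling, a pathway known for driving collagen transcription, were followed by their RNA alone. The part of this pathway in the collagen difference was not tested. Of 29, 10 had a higher mean and the median was -0.05 units. Tgfb1, the ligand, differed by 0.10, while its receptor Tgfbr1 differed by -0.22 and Mstn, the muscle growth inhibitor myostatin, by -0.24. The feedback inhibitor Smad7 differed by -0.18, and Grem1, a BMP antagonist, by 0.23. Of 19 receptors for collagen and laminin 14 had a higher mean, with a median of 0.05 units. The highest was the collagen-binding integrin subunit Itga2 at 0.21. Of 18 growth genes 12 had a higher mean, also with a median of 0.05. Over all genes 58.9% had a higher mean and the median was 0.03, so both lists lay near the background. Among the growth genes, Igf1 differed by 0.24 and Igfbp5 by 0.25, and the lowest member by -0.16.

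Markers of the cells that could carry the matrix were followed, since the share of each cell type was not measured. Tendon markers had a median of 0.24 units, with 9 of 10 higher, and of 0.12 with 18 arrays a set. Their mean score lay between 8.99 and 9.95 on the high arrays and between 8.66 and 9.56 on the low arrays. Fmod, fibromodulin, ranged from 10.946 to 12.341 with a median of 11.48 on the high arrays and from 10.387 to 11.629 with a median of 11.19 on the low arrays. Kera, keratocan, differed by 0.35 units and Tnmd, tenomodulin, by 0.24, both under 1 pooled SD. Scx, the tendon transcription factor, differed by 0.13, and Angptl7 by -0.15. The dimmest marker was Mkx, with a mean of 7.0 over all arrays, and the part of this list in the collagen difference was not tested.

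Of 15 fibroblast markers 10 had a higher mean, with a median of 0.11 units and a mean score of 9.57 to 9.87 on the high and 9.38 to 9.87 on the low arrays. Thy1, a surface protein of fibroblasts, ranged from 8.785 to 9.360 with a median of 9.08 on the high arrays and from 8.602 to 9.063 with a median of 8.76 on the low arrays, a difference of 2.07 pooled SDs. Pdgfra, the receptor that marks muscle fibroblasts, differed by -0.05 units and Pi16 by -0.06, so the markers did not all share a direction. Macrophage markers had 13 of 16 higher with a median of 0.07, and endothelial markers 2 of 15 with a median of -0.05.

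Adipocyte markers were higher in the high set for 13 of 14 genes, with a median of 0.21 units. Of the 14, 6 reached 0.3 units, against 0.73% of all genes. By the other rule 1 was higher by at least 1 pooled SD, against 15.9% of all genes. Their mean score was 10.2 to 11.2 on the high arrays and 9.79 to 11.3 on the low arrays, so the ranges overlapped nearly throughout. Plin1, the coat protein of fat droplets in adipocytes, ranged from 9.269 to 10.475 with a median of 10.01 on the high arrays and from 8.755 to 10.231 with a median of 9.40 on the low arrays. Lep, leptin, differed by 0.56 units (high arrays 9.510 to 11.330, low arrays 8.097 to 11.139) and Adipoq, adiponectin, by 0.42. Fabp4 and Pparg, both at home in fat cells, differed by 0.03 and -0.01. The list rested on batch 1, where its median was 0.45, against 0.05 in batch 2, and it was 0.09 with 18 arrays a set. Its part in the collagen difference was not tested.

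Genes of the fasting and glucocorticoid response were lower. All 14 had a lower mean in the high set, with a median of -0.31 units, and 8 were lower by at least 0.3. The mean of the 14 on each array ranged from 10.2 to 10.9 with a median of 10.4 in the high set and from 10.3 to 11.4 with a median of 10.9 in the low set. It lay below the median of the 37 arrays for 8 of 12 high arrays and for 3 of 12 low arrays, so the sets overlapped. The median was -0.28 within batch 1, -0.34 within batch 2, -0.26 without BXD61 and -0.18 with 18 arrays a set. In batch 1 alone, after quantile normalization and after centring within bins of brightness, 1 of the 14 had a higher mean.

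Fkbp5, a co-chaperone induced by the glucocorticoid receptor, ranged from 8.676 to 9.456 with a median of 9.06 on the high arrays and from 8.410 to 10.540 with a median of 9.75 on the low arrays, a difference of -0.62 units. Trim63 (MuRF1), the ubiquitin ligase of fasted and wasting muscle, ranged from 11.521 to 13.140 with a median of 11.85 and from 11.462 to 13.276 with a median of 12.53, a difference of -0.54. Its companion ligase Fbxo32 (atrogin-1) differed by -0.31 and their activator Foxo1 by -0.31. The low median of Fkbp5 lay above every high array, while the ranges of Trim63 overlapped nearly throughout. Ddit4, a stress inhibitor of mTOR, differed by -0.61 and Mt1, a metallothionein, by -0.46. Outside the list, Cdkn1a, a cell cycle inhibitor also induced in fasted muscle, differed by -0.61 units, and Ucp3, a mitochondrial carrier that is high in fasted muscle, by -0.54. Each was the lowest member of its own list, so neither stands for that list. The myogenic and regeneration list, which held Cdkn1a, had 8 of 16 higher and a median of -0.005. The 23 fatty acid oxidation genes on the array, Ucp3 included, had 5 higher and a median of -0.05.

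**Figure D3:**
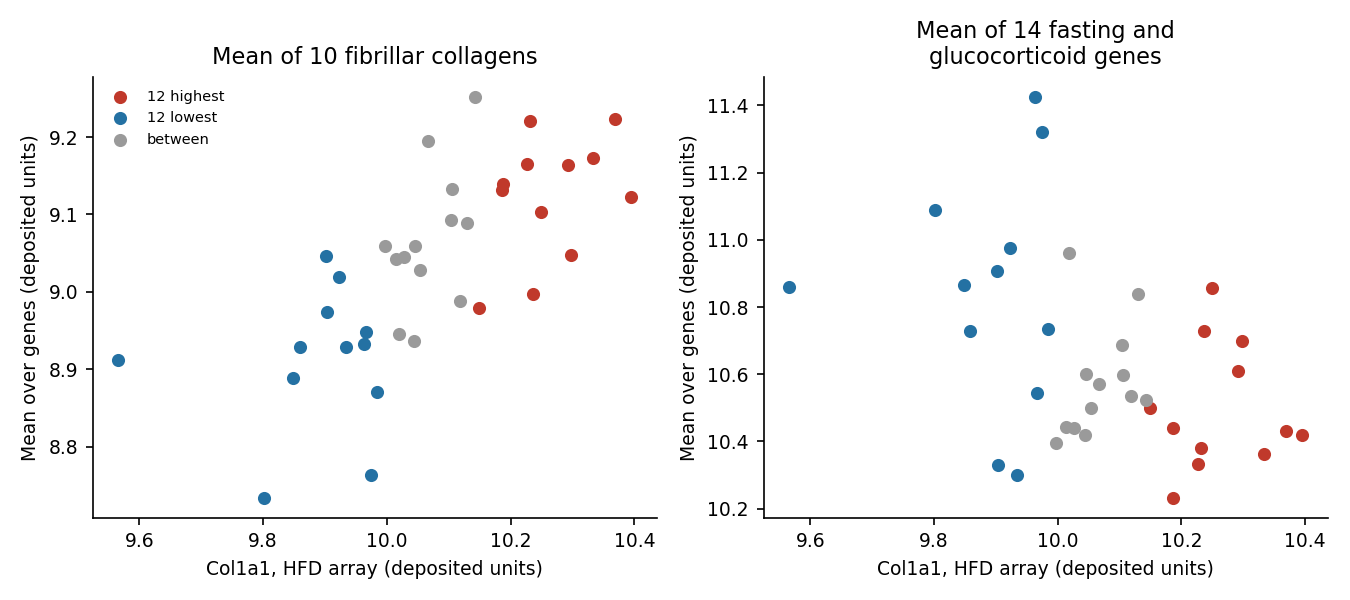
Mean of the 10 fibrillar collagens other than Col1a1 (left) and of the 14 fasting and glucocorticoid genes (right) on each of the 37 HFD arrays, in deposited units, against Col1a1 of the same array. Colours mark the 12 highest, the 12 lowest and the 13 arrays between. The collagen mean was above its median over the 37 arrays for 10 high and 1 low arrays, and the fasting mean was above 11 only on low arrays.

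Fibre genes differed by type and by batch. The 12 fast fibre genes all had a higher mean, with a median of 0.09 units. Of 11 slow fibre genes 2 had a higher mean and the median was -0.26, but it was -0.59 in batch 1 and -0.02 in batch 2. Myl3, the slow and cardiac ventricular light chain, ranged from 8.332 to 10.840 with a median of 8.92 on the high arrays and from 8.225 to 12.152 with a median of 10.22 on the low arrays. Its difference of -0.97 units was -2.03 in batch 1 and -0.22 in batch 2. Myh7, the slow myosin heavy chain, differed by -0.32 and Myl2 by -0.33, both under 1 pooled SD. Genes of the cell cycle had 19 of 20 higher with a median of 0.10, at low means over all arrays of 5.1 for Hmmr to 8.5 for Ube2c. Among clock genes, Dbp was higher by 0.46 units and Arntl lower by -0.31, and 9 of 14 had a higher mean.

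**Figure D4:**
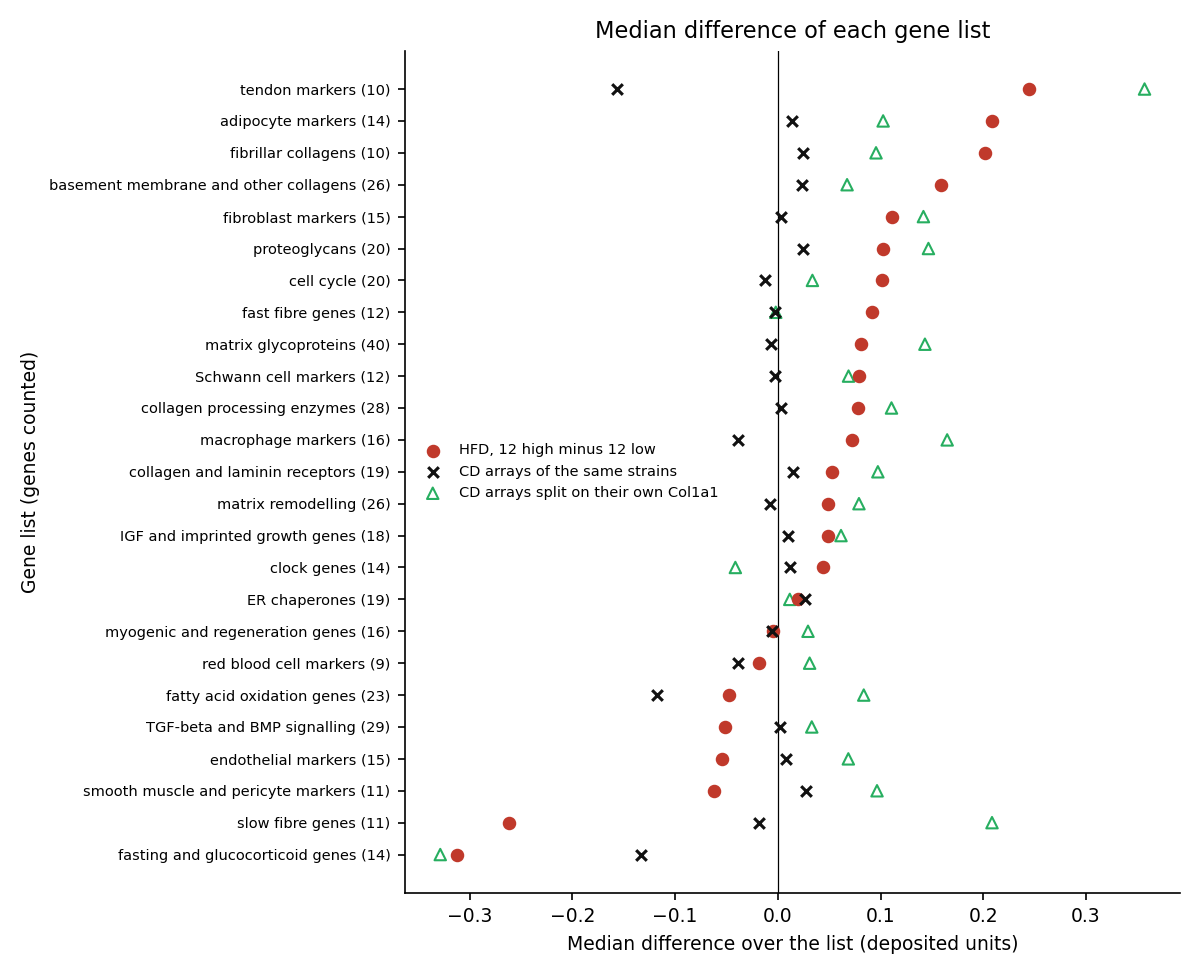
Median difference in deposited units (horizontal axis) over each of 25 gene lists (vertical axis, with the number of genes counted) in the HFD sets, on CD arrays of the same strains and in a split of the CD arrays on their own Col1a1. Col1a1 is left out. The HFD medians run from -0.31 for fasting genes to 0.24 for tendon markers, while those on CD arrays of the same strains run from -0.16 to 0.03.

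The 10 genes with the largest higher mean in the high set were Tmem45b (0.78 units), Hp (0.70), Unc5a (0.64), Lep (0.56), Golm1 (0.55), Olfr767 (0.54), Plin1 (0.51), Mest (0.51), Tshr (0.50) and Dkk3 (0.48). Hp is haptoglobin, which fat cells also make, and ranged from 8.903 to 11.080 on the high arrays and from 7.919 to 11.070 on the low arrays. Mest, an imprinted gene that varies with fat mass, was higher by 1.26 in batch 1 and differed by -0.02 in batch 2. Hp (1.05 and 0.46), Plin1 (0.82 and 0.29) and Tshr (0.73 and 0.33) also differed more in batch 1, and Olfr767 (0.18 and 0.79) and Golm1 (0.39 and 0.66) more in batch 2. Tmem45b differed by 0.18 with 9 arrays a set and by -0.02 with 18. With centred arrays ranked again, Olfr767 differed by 0.27 and Golm1 by 0.36. Dkk3, a secreted protein of the Dickkopf family, ranged from 9.295 to 10.400 with a median of 9.84 on the high arrays and from 8.546 to 9.944 with a median of 9.34 on the low arrays, and its difference was 0.31 without BXD63.

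The 10 largest lower means were those of ND6 (-1.06 units), 8430408G22Rik (-1.02), Myl3 (-0.97), Snora34 (-0.78), 4832428D23Rik (-0.78), Rny1 (-0.77), Snord118 (-0.77), Mela (-0.74), Snord115 (-0.66) and Gm3079 (-0.66). The last 2 carried identical values and cannot be told apart, and both differed by -0.41 with centred arrays ranked again. Mela varied widely within both sets, from 6.941 to 13.043 on the high arrays and from 5.842 to 12.395 on the low arrays. Its difference was -0.42 without BXD61, -0.46 without BXD63, -0.89 with 18 arrays a set and -1.64 with 9. ND6 is a mitochondrially encoded subunit of complex I and ranged from 8.447 to 13.260 on the high arrays and from 11.716 to 13.782 on the low arrays, with -2.07 in batch 1 and -0.35 in batch 2. The same order of batches was seen for Snora34 (-1.44 and -0.31), Snord118 (-1.42 and -0.31), 4832428D23Rik (-1.36 and -0.37), Mela (-1.40 and -0.27) and Rny1 (-1.09 and -0.54). A second, dimmer ND6 probeset differed by -0.14 over both batches. 8430408G22Rik (Depp1), a target of FOXO factors, ranged from 8.439 to 10.542 with a median of 8.84 on the high arrays and from 8.338 to 11.768 with a median of 9.94 on the low arrays. Its difference was -0.64 with centred arrays ranked again and -0.63 with 18 arrays a set. The 94 probesets of small nucleolar RNAs, a class looked at after these values were seen, had 6 higher and a median of -0.45.

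The brightness of probesets moved with the sets. By decile of mean value, the median difference was -0.06 in the dimmest, 0.10 in the fifth, -0.06 in the ninth and -0.02 in the brightest. It shrank to between -0.01 and 0.05 after the arrays were quantile normalized and ranked again, which replaced 1 high array. Array medians were 7.833 to 7.901 in the high set and 7.783 to 7.888 in the low set. The first principal component of the 37 arrays held 15.7% of the variance, and 9 of 12 high arrays but 1 of 12 low arrays lay above its median. Keratins and related genes, best known from skin, were higher on 114 of 126 probesets with a median of 0.13. After centring within 20 bins of brightness and a new ranking, which also replaced 1 high array, all 36 collagens were higher again, with medians of 0.20 and 0.14, and the fasting genes had a median of -0.26. The keratins and related genes were still higher on 101 of 126 probesets, with a median of 0.09.

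**Figure D5:**
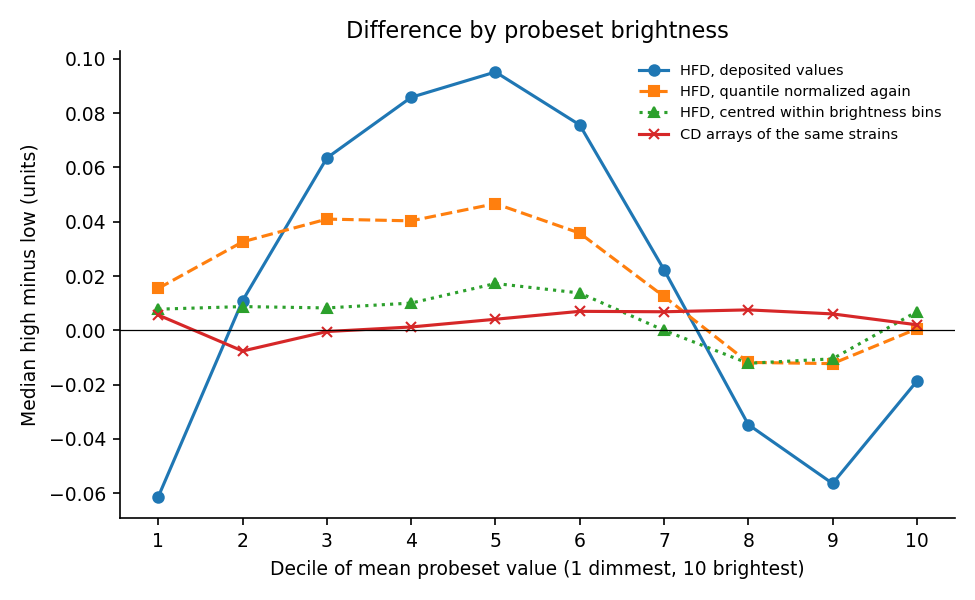
Median difference between high and low strains in deposited units (vertical axis) for each decile of mean probeset value (horizontal axis), for the HFD arrays under 3 scalings and for CD arrays of the same strains. The deposited HFD values rise to 0.10 in the fifth decile and fall to -0.06 in the ninth.

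CD arrays of the same 12 and 12 strains, from other animals, were not used to choose the sets and so allowed a test of whether the same strains differ in Col1a1 on CD. Col1a1 ranged from 9.747 to 10.183 with a median of 10.007 in the 12 strains high on HFD and from 9.691 to 10.247 with a median of 10.039 in the 12 strains low on HFD. The ranges overlapped nearly throughout. These strains had 4 and 6 CD arrays in batch 1 and 8 and 6 in batch 2. With batch as a term, the limma difference was -0.05 ± 0.06 units (SE), with a 95% interval of -0.18 to 0.08 and an adjusted p of 0.9997.

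No probeset passed this test. Of 35556 probesets 0 were called by limma at an adjusted p below 0.05 (0%), and the unadjusted p lay below 0.05 for 1433, fewer than the 1778 that chance alone gives. Means were higher in the high strains for 52.4% of genes. For Col1a2 the CD difference was -0.01 with a 95% interval of -0.14 to 0.11, and for Col3a1 it was 0.06 with -0.12 to 0.25. Over the 10 fibrillar collagens the median was 0.02 with 7 higher, over the 26 others 0.02, and none was called. Both medians were above 0 in batch 1 alone (0.09 and 0.07) and below 0 in batch 2 alone (-0.03 and -0.04). The tendon markers had a median of -0.16 with 2 of 10 higher. That median was -0.34 in batch 1 alone and -0.02 in batch 2 alone. It was -0.09 with 18 strains a set and -0.06 with centred arrays ranked again. Fatty acid oxidation genes had a median of -0.12 with 0 of 23 higher and 0 called. Fasting genes had a median of -0.13 with 3 of 14 higher and 0 called. Their median was 0.01 with 18 strains a set and 0.03 with centred arrays ranked again. For Fkbp5 the CD difference was -0.22 with an interval of -0.60 to 0.17, which holds 0. The 5 genes of smallest p were Gins2 (0.17 units), mir-101b (0.20), Olfr1314 (-0.28), Tas2r108 (-0.18) and Gm8587 (-0.19), and none of them passed.

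Over all 37 strains, Col1a1 on HFD was compared with Col1a1 on CD after batch means were removed within each diet. Pearson's r was -0.121 (permutation p = 0.475) and Spearman's rho was -0.136 (permutation p = 0.424), two-sided with 100000 draws. Of correlations between the diets, only that of Col1a1 was tested. Without BXD61 and BXD85, the strains farthest from the HFD median, r was -0.142 (permutation p = 0.415), and without BXD61 alone it was -0.0556 (permutation p = 0.745). It was -0.203 over the 12 strains with both arrays in batch 1, -0.0935 over the 17 with both in batch 2 and -0.255 over the 8 with arrays in different batches. In a fit over the 37 CD arrays the slope was -0.10 units of CD Col1a1 per unit on HFD, with a 95% interval of -0.39 to 0.18.

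As a description, r between diets over the same strains was 0.46 for Col3a1, 0.08 for Col1a2, 0.44 for Fbxo32 and 0.34 for Trim63. The fibrillar collagens had a median r of 0.15, with 9 of 11 above 0. All named genes had a median of 0.16, with 17092 of 22334 above 0. The 14 fasting genes had a median of 0.34, all above 0. Other connective tissue lists had medians of 0.44 (fibroblast markers), 0.37 (matrix glycoproteins), 0.35 (proteoglycans) and 0.34 (collagen processing genes). Lower medians were those of remodelling genes (0.27), tendon markers (0.25) and basement membrane and other collagens (0.17). Fatty acid oxidation genes had 0.39. Arrays of a strain share its genotype and, for most strains, the array batch.

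The 42 CD arrays were also split on their own Col1a1, which again is a description, chosen after the data were seen. The 12 highest lay between 10.11 and 10.313 and the 12 lowest between 9.691 and 9.893. Only 4 strains were high in both splits and 1 was low in both, while 4 were high on HFD and low on CD and 5 the reverse. Of genes, 60% had a higher mean in the high CD arrays, 123 by at least 0.3 units (0.551%), and 91 were lower by as much (0.407%). The profile had parts in common with that on HFD. All 10 fibrillar collagens were higher, with a median of 0.10 units, as were all 10 tendon markers (0.36) and all 15 fibroblast markers (0.14). All 14 fasting genes were lower, with a median of -0.33, Trim63 by -0.50 and Fkbp5 by -0.37. Slow fibre genes went the other way, with 11 of 11 higher and a median of 0.21. More members were also higher than on HFD among fatty acid oxidation genes (18 of 23), TGF-beta and BMP genes (20 of 29), endothelial markers (10 of 15) and smooth muscle and pericyte markers (9 of 11), and their medians changed sign, as did those of red blood cell markers (7 of 9 higher), myogenic genes (11 of 16), fast fibre genes (6 of 12) and clock genes (5 of 14).

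Across genes the differences of both splits had r = 0.399, and 67.2% of genes had the same sign, though genes are not independent replicates. Most genes were higher in each split (58.9% on HFD and 60% on CD), which by itself raises the share of same signs. No baseline was computed for that share. Both splits shared 16 of the 163 genes higher on HFD and of the 123 higher on CD, and 42 of the 203 lower on HFD and of the 91 lower on CD. No array entered both splits.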

How the data were processed

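The authors deposited a score per probeset of Affymetrix Mouse Gene 1.0 ST arrays, scaled on each array to average 8 with an SD of 2. The submitters' processing notes name Affymetrix Expression Console. The summarization, log base and any batch correction are not given in the sources used here. All value columns were used. Precision is limited by the number of arrays, and p-values measure the spread between pooled cohorts.

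The sets were the 12 HFD arrays highest and the 12 lowest in Col1a1. Members and lists were chosen with earlier results of these data known. A gene was represented by its brightest probeset on average. Differences on HFD arrays were described by size (0.3 units, or 1 pooled SD, added later), and CD arrays of the same strains were fitted with limma 3.58.1 (group and batch, Benjamini-Hochberg) in R 4.3.3, tested on simulated data. The fit had been planned for values on a log scale and was run on the scores as deposited. The correlation used Python 3.11.15 and numpy 2.4.6, figures matplotlib 3.10.9. Genes named were Col1a1, the 10 largest differences each way on HFD, those called on CD or else the 5 of smallest p, and members of 25 gene lists (Col22a1, Hbb-b2, Eci1 and Eci2 were not on the array by symbol). Podnl1 and the gene classes were named after their values were seen. Alternatives covered set size, scaling, dim probesets, batch, strains and test.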

Additional observations from a re-analysis of the deposited data

How the results depend on the processing

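The CD test called 0 probesets under every alternative run, and Col1a1 between diets kept an r below 0 and a p above the threshold in all of them. The CD difference of Col1a1 turned to 0.00417 in batch 1 alone. Counts of genes higher and lower by 0.3 units on HFD (163 and 203) were 33 and 86 with 18 arrays a set, 55 and 344 with arrays centred on their medians and the sets kept (added after seeing the data), 40 and 131 with the centred arrays also ranked again, 446 and 331 in batch 1 alone and 681 and 383 in batch 2 alone, where sets were smaller. They were 8 and 31 at 0.5 units, 3543 and 1240 at 1 pooled SD, and 110 and 173 without BXD61. The lower count was 135 without dim probesets, 305 after centring within bins and 91 in the split of CD arrays. Tmem45b turned to -0.0249 with 18 arrays a set and Mest to -0.0236 in batch 2 alone; the cause was not tested. Ranking after removal of batch means, or without the parental strains, chose the same arrays. An alternative on another Col1a1 probeset was not run, as there is only 1 of that name. No paired analysis was possible because nothing pairs a high strain with a low one; arrays of the same strain on both diets were paired in the correlation of Col1a1.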

Other observations

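Probesets of the same mitochondrially encoded gene differed in the HFD comparison. The brightest CYTB probeset had a mean of 15.2 ± 0.09 (SD, n = 12) in the high Col1a1 set and 15.2 ± 0.08 in the low set, while a second CYTB probeset had 9.90 ± 1.69 and 11.1 ± 0.53, a difference of -1.23 units. The brightest ND2 probeset differed by 0.04, and the other ND2 probesets by -1.11 and -1.22. The ND6 probesets differed by -1.06 and, on the dimmer of them, by -0.14. ND4L and ATP6 stayed within 0.02 units on their bright probesets.

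Other cell types were followed by their markers. Schwann cell markers had 10 of 12 higher with a median of 0.08 units, led by Sox10 (0.19) and Egr2 (0.16). Smooth muscle and pericyte markers had 4 of 11 higher with a median of -0.06, among them Tagln at -0.19 and Acta2 at -0.14. Of 9 red blood cell markers 4 were higher and 3 were lower by at least 0.3 units, all of them globins. The globins Hbb-b1 and Hba-a1 differed by -0.51 and -0.39. Hbb-b1 ranged from 10.243 to 12.646 on the high arrays and from 11.728 to 13.377 on the low arrays, so these ranges overlapped. Satellite cell and regeneration genes had 8 of 16 higher, with Pax7 at 0.11, Myod1 at 0.13 and Musk, of the neuromuscular junction, at -0.28. Its 2 members lower by at least 0.3 units were Cdkn1a (-0.61) and Gadd45a (-0.30), both growth arrest genes.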
